A study of Mus musculus with 8 samples.

Results

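The signal regulatory protein genes Sirpa, Sirpb1a, Sirpb1b and Sirpb1c were described together with Cd47, the gene of the ligand of SIRPA. The cells were long-term hematopoietic stem cells (LT-HSCs) of asrij floxed and asrij knockout (KO) mice. The 5 genes were chosen by symbol, out of 54749 genes with a mapped transcript, of which 39107 had at least 1 count and 21902 passed the low-count filter. All 5 passed it. Each gene was represented by the transcript selected on the highest total count over the 8 libraries, a measure that does not use the genotype. For Sirpa and the 3 Sirpb1 genes the next transcript had the same total, and for Cd47 it had 39.8% of it. Earlier KO and floxed values of these libraries were known when the family was picked, so the values below describe these libraries and are not independent evidence.

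One RNA-seq library was made from each of 8 mice. The floxed mice carried homozygous floxed asrij and served as controls (replicates 1, 3, 4 and 5). The KO mice lacked asrij in the whole body (replicates 2, 3, 4 and 5), so cells around the LT-HSCs lacked it too. All mice were 6 months old by the labels, and mice of both sexes were used without a sex being given for each library. asrij is the mouse gene Ociad1, which encodes a protein of mitochondria and endosomes. LT-HSCs were sorted from bone marrow as lineage-negative, c-Kit+, Sca1+, CD150+ and CD48+ cells according to the study's methods for these libraries. LT-HSCs are usually defined as CD48-, so which population the libraries hold is uncertain.

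SIRPA is an inhibitory receptor of macrophages, monocytes, neutrophils and dendritic cells. When it binds CD47 on another cell, its cytoplasmic tail recruits the phosphatases encoded by Ptpn6 and Ptpn11, and engulfment of that cell is restrained. CD47 is carried by nearly all blood cells, stem cells included, and protects them from phagocytes. SIRPB1 proteins have a closely related extracellular part but a short tail, pair with the adaptor encoded by Tyrobp and signal through the kinase SYK in the activating direction. They are not known to bind CD47.

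In GRCm38, Sirpa lies on the plus strand of chromosome 2 (chr2:129592835-129632228) and Cd47 on the plus strand of chromosome 16 (chr16:49800533-49915010). The Sirpb1 genes lie next to each other on the minus strand of chromosome 3, Sirpb1a at chr3:15371653-15426520, Sirpb1b at chr3:15495751-15575065 and Sirpb1c at chr3:15795145-15848528. The transcripts used had 9 exons for Sirpa, 10 for Cd47 and 6 for each Sirpb1 gene. Coding sequences of Sirpb1b and Sirpb1c were 98.3% identical over 1176 aligned bases, and Sirpb1a was 97.4% identical to each. Sirpa was 70.5 to 71.3% identical to the 3 Sirpb1 genes.

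The first 120 coding bases of the Sirpb1 genes, from the GENCODE M21 transcripts, show how close the copies are. They run 5′ to 3′ along the minus strand with exons joined, between the outer coordinates chr3:15417147-15426405, chr3:15548901-15574950 and chr3:15838919-15848413. Capitals mark the 5 positions at which the genes differ.
Sirpb1a: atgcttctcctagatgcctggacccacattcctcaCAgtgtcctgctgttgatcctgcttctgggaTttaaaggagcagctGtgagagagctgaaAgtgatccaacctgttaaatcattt
Sirpb1b: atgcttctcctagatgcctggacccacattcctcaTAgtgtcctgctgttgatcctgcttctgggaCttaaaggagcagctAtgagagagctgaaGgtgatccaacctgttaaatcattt
Sirpb1c: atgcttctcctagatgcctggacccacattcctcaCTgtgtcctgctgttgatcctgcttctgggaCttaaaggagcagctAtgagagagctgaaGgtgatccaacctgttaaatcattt

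Reads from stretches that the copies share letter for letter cannot be assigned to 1 copy. Of all 50-base stretches of the spliced Sirpb1b transcript, 67.4% also occurred in a transcript of another gene, and 63.1% occurred in Sirpb1c. For Sirpb1c the share with any other gene was 72.6%, and for Sirpb1a 44.8%. Sirpa shared none, and Cd47 shared 0.904%. These shares are for spliced transcripts, and introns, which the counts also cover, were not compared. How reads with several matches were counted is not given in the sources used here, so the split between the Sirpb1 genes is uncertain, in particular between Sirpb1b and Sirpb1c.

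The starts of the 3 genes were also alike. RefSeq promoter windows (GRCm38.p6, 250 bases before to 50 bases after the annotated start) were held for 4 of the 5 genes. Those of the Sirpb1 genes lie on the minus strand at chr3:15426378-15426677, chr3:15575016-15575315 and chr3:15848438-15848737. They are shown for their likeness. Any part of these sequences in the levels of the genes was not tested. Capitals mark ACTTCC, which is GGAAGT, a core of sites that ETS factors bind, read on the other strand.
Sirpb1a: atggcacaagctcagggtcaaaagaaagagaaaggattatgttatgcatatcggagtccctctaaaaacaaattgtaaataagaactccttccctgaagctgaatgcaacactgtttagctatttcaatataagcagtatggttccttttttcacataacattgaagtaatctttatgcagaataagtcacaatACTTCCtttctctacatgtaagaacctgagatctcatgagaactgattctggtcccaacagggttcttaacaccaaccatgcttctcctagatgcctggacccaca
Sirpb1b: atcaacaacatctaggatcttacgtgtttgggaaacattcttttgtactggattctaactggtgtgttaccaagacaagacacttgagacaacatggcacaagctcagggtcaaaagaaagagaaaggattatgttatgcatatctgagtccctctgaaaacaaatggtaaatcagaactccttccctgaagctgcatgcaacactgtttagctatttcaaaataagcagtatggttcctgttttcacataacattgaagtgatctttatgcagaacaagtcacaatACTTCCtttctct
Sirpb1c: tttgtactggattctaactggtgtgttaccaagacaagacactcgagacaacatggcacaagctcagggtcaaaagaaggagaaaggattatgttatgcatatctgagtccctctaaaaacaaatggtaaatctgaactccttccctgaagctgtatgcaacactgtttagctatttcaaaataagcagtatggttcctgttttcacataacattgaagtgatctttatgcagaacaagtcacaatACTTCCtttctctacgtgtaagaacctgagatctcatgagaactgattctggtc

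Each Sirpb1 window held 1 match to the motif, with both strands searched, and 23.8% of all 32851 windows held at least 1. The match began 56 bases before the RefSeq start in Sirpb1a, 4 bases before it in Sirpb1c and at base 38 of the transcript in Sirpb1b. The GENCODE spans of Sirpb1a and Sirpb1c given above start further upstream, at chr3:15426520 and chr3:15848528 on the minus strand. The match lies inside these spans, so its place before or after the start depends on the annotation. It sat in a run of 23 bases that the 3 windows shared letter for letter. Aligned parts of the windows were 98.1% identical between Sirpb1b and Sirpb1c (259 bases), and 95.7% between Sirpb1a and Sirpb1b (207 bases). The Sirpb1 windows held 1 or 2 CG pairs and 38.0 to 39.0% G and C, against 35 CG pairs and 74.0% in the first of the Cd47 windows, which held no match. The median over all windows was 7 CG pairs.

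Gene counts summed to between 23412829 and 44874882 per library. Ociad1 itself had 31.3 to 66.9 CPM (library-size-scaled counts, with TMM factors) in floxed and 11.7 to 19.7 CPM in KO libraries, with no overlap. Markers of differentiated cells were abundant in libraries sorted as stem cells, so the values below describe the libraries. The summed level of 12 neutrophil markers was 45451, 51663 and 46658 CPM in floxed replicates 1, 4 and 5, 16829 CPM in floxed replicate 3 and 25056 to 31720.5 CPM in KO libraries. The 10 stem cell markers summed to 106 to 132 CPM in floxed and 113 to 133 CPM in KO libraries. In edgeR's test 1 of 10 was higher in KO (adjusted p under 0.05), beside 1.22% of all genes tested. Of the 10 markers, Slamf1, which encodes CD150, had a mean of 1.33 CPM in floxed and 2.80 CPM in KO libraries. Floxed replicate 3 stood apart from the other floxed libraries in the neutrophil and monocyte sums. Its erythroid sum was the highest of the floxed libraries (70955 CPM), and that of floxed replicate 1 was the lowest (28051 CPM). Floxed replicates 4 and 5 had 51980 and 51868 CPM.

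KO libraries showed lower levels of Sirpb1b and Sirpb1c than floxed libraries, whereas Sirpa and Cd47 had overlapping levels. The activating receptor gene Sirpb1b had 72.9, 42.8, 57.9 and 59.9 CPM in the floxed mice (replicates 1, 3, 4 and 5). In the KO mice (replicates 2, 3, 4 and 5) it had 17.4, 22.3, 15.5 and 18.2 CPM. The highest KO value lay below the lowest floxed value. The means were 58.4 ± 12.3 and 18.3 ± 2.86 CPM (SD, n = 4 each), a 3.18-fold lower mean in KO. The log2 fold change (KO over floxed) was -1.67 (SE 0.20, 95% interval -2.11 to -1.23, adjusted p = 0.00577 by edgeR's quasi-likelihood test over all genes).

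Sirpb1c, the neighbouring copy, had 50.1, 25.5, 40.6 and 36.1 CPM in floxed and 12.6, 12.01, 8.76 and 8.805 CPM in KO libraries, in the same order of replicates. Its groups did not overlap either, and floxed replicate 3 was again the lowest floxed library. The means were 38.1 ± 10.2 and 10.5 ± 2.04 CPM (SD, n = 4 each), 3.61-fold lower in KO. The log2 fold change was -1.85 (SE 0.24, 95% interval -2.38 to -1.32, adjusted p = 0.00789 by edgeR). By p-value, Sirpb1b ranked 32 and Sirpb1c 46 among the 21902 genes tested.

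Sirpb1b and Sirpb1c passed both thresholds of the study (adjusted p under 0.05 and absolute log2 fold change above 1.5), lower in KO, as did 0.74% of all genes tested, and 1.19% passed in either direction. With the adjusted p alone, 2.97% of genes passed, 1.75% lower and 1.22% higher in KO. This balance is not stable, since of the genes past both thresholds 162 were lower and 99 higher, but 73 and 113 by limma, 312 and 545 without floxed replicate 3, and 378 and 683 within numbers 4 and 5. Groups without overlap were seen in 14.8% of genes, and in 7.66% with KO lower. Leaving out 1 library at a time gave log2 fold changes from -1.78 to -1.53 for Sirpb1b and from -1.99 to -1.67 for Sirpb1c, and both passed both thresholds in 8 of 8 fits (without floxed replicate 3, -1.78 and -1.99). With a block for the replicate number (numbers 3 to 5), they were -1.50 (adjusted p = 0.0895, edgeR) and -1.76 (adjusted p = 0.086, edgeR), so the calls ended while the directions stayed. Both genes passed both thresholds with a block for numbers 4 and 5 over all 8 libraries. The log2 fold changes in that fit were -1.67 (adjusted p = 0.00128, edgeR) and -1.87 (adjusted p = 0.00183, edgeR). Within numbers 4 and 5 alone, with 2 libraries of each genotype, they were -1.81 (adjusted p = 5.46e-06, edgeR) and -2.13 (adjusted p = 3.57e-06, edgeR). Within numbers 1 to 3 they were -1.53 (adjusted p = 0.179, edgeR) and -1.61 (adjusted p = 0.183, edgeR).

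Sirpb1a, the third copy, had 24.7, 12.1, 21.98 and 19.9 CPM in floxed and 12.5, 12.3, 12.3 and 11.8 CPM in KO libraries. Floxed replicate 3 lay inside the KO values, and the other floxed libraries lay above all KO libraries. The means were 19.7 ± 5.42 and 12.2 ± 0.269 CPM (SD, n = 4 each). The log2 fold change was -0.69 (SE 0.22, 95% interval -1.17 to -0.20), and the difference did not pass the test over all genes (adjusted p = 0.106, edgeR). Without floxed replicate 3 it was -0.85 (adjusted p = 0.00313, edgeR), below the limit on the size of the change but past the limit on p.

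The inhibitory receptor gene Sirpa had 461, 275, 498 and 551 CPM in floxed and 324, 308, 409.7 and 401 CPM in KO libraries. Floxed replicate 3 was the lowest of all 8 libraries, and the other floxed libraries were above all KO libraries. The means were 446 ± 120.1 and 361 ± 51.9 CPM (SD, n = 4 each), with a log2 fold change of -0.31 (SE 0.24, 95% interval -0.84 to 0.22, adjusted p = 0.492, edgeR). Within numbers 4 and 5 the log2 fold change was -0.38 (adjusted p = 0.0137, edgeR), and leaving out 1 library at a time gave -0.47 to -0.19, with 0 of 8 fits past the limit on p (without floxed replicate 3, -0.47 with adjusted p = 0.0626, edgeR).

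The ligand gene Cd47 had 561, 506, 459 and 366 CPM in floxed and 575, 626, 404 and 407 CPM in KO libraries. In both genotypes the libraries numbered 4 and 5 were below those with lower numbers. The means were 473 ± 82.6 and 503 ± 114.6 CPM (SD, n = 4 each). The log2 fold change was 0.09 (SE 0.22, 95% interval -0.41 to 0.59, adjusted p = 0.853, edgeR), an interval that leaves room for a change in either direction, and the sign turned without floxed replicate 5 (-0.011), without KO replicate 3 (-0.029) and within numbers 4 and 5 (-0.029).

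**Figure D1:**
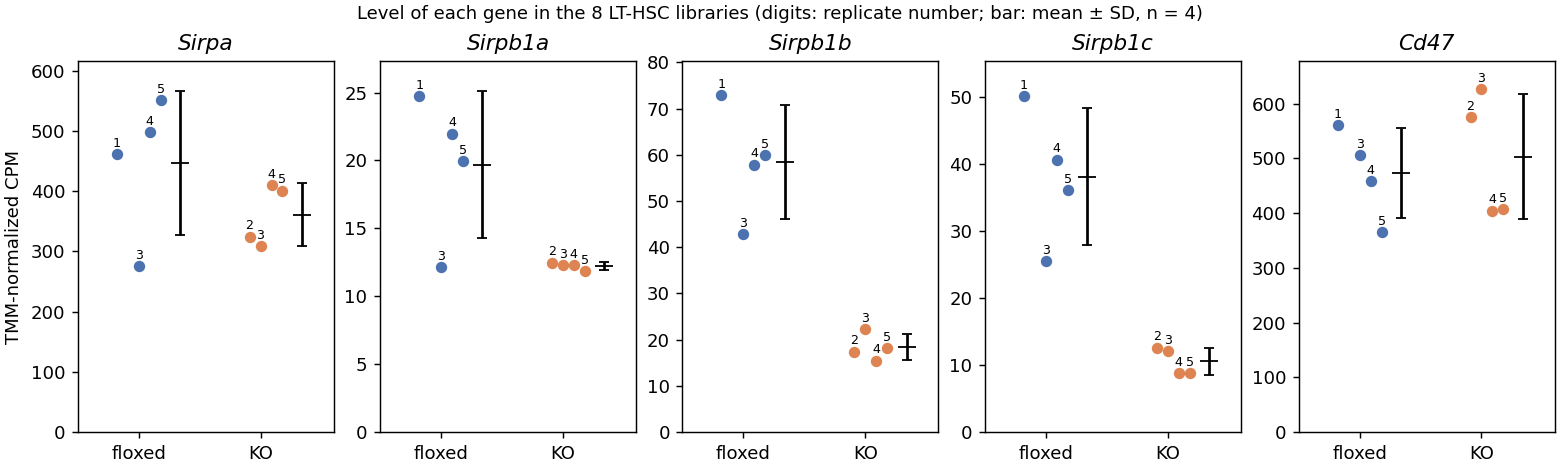
TMM-normalized CPM (y axes, each from 0) of the 5 genes in the 4 floxed and 4 KO libraries; points carry the replicate number, and bars give the mean ± SD. The KO points of Sirpb1b and Sirpb1c all lie below the floxed points, while those of the other 3 genes overlap with floxed points.

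Markers of other cell types differed between the libraries as well. The summed level of 8 monocyte markers was 2337, 2305 and 2113 CPM in floxed replicates 1, 4 and 5, 859 CPM in floxed replicate 3 and 1170.4 to 1243 CPM with KO, and 0 of 8 passed edgeR's test (4 with an unadjusted p under 0.05, all lower in KO, against 21.8% of all genes in either direction; 3 lower by DESeq2 and 0 by limma). Of the 12 neutrophil markers, 0 passed edgeR's test (3 with an unadjusted p under 0.05, all lower; 3 lower by DESeq2 and 0 by limma). Without floxed replicate 3, 7 of 8 monocyte and 6 of 12 neutrophil markers were lower in KO, and within numbers 4 and 5 it was 7 of 8 and 12 of 12. Many more genes passed in those fits, with 857 of 22094 and 1061 of 20974 past both thresholds, against 261 of 21902 with all libraries. The share of all genes with adjusted p under 0.05 alone is not given for those fits. Counts from them, here and below, therefore have no matching background. In floxed replicate 3, the monocyte and neutrophil sums were below those of every KO library. Its Sirpb1b and Sirpb1c levels were the lowest of the floxed libraries (42.8 and 25.5 CPM) and above those of every KO library. A link between these markers and the Sirpb1 genes was not tested. The 12 macrophage markers summed to 381 to 409 CPM in floxed and 517 to 574 CPM in KO libraries. In edgeR's test 2 of 12 were higher in KO, beside 1.22% of all genes tested. It was 6 with an unadjusted p under 0.05, 5 by DESeq2 and 3 by limma. Without floxed replicate 3, 7 were higher and 1 lower. The dendritic sums overlapped (77.8 to 115 and 77.9 to 118 CPM, 0 of 8 by edgeR, 1 with an unadjusted p under 0.05 and 0 by DESeq2 or limma). In bulk samples, fewer cells of a type and less RNA per cell cannot be told apart.

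Summed megakaryocyte and erythroid markers were higher in every KO library than in any floxed library. The 6 megakaryocyte markers summed to 34.8 to 87.1 CPM in floxed and 177 to 190.4 CPM in KO libraries. In edgeR's test 5 of 6 were higher, beside 1.22% of all genes tested. It was 6 with an unadjusted p under 0.05 (21.8% of all genes in either direction), 5 by DESeq2 and 5 by limma. The 11 erythroid markers summed to 28051 to 70955 and 123313 to 296027 CPM, with 3 of 11 higher in edgeR's test. It was 9 with an unadjusted p under 0.05, 8 by DESeq2, 3 by limma and 11 without floxed replicate 3. Haemoglobin genes took 2.85 to 7.67% of gene counts in floxed and 12.2 to 24.3% in KO libraries. With these genes left out before scaling, both Sirpb1b and Sirpb1c still passed both thresholds. The 7 B and plasma cell markers (378 to 507 and 434 to 485 CPM) had 1 higher and 1 lower, and 1 of 5 T and NK cell markers was lower (18.3 to 24.2 and 11.3 to 15.5 CPM). Over all genes tested, 1.22% were higher and 1.75% lower. No marker was at 0 in all libraries. The part of these cells in the levels of the Sirp genes was not tested.

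The balance among the Sirpb1 copies also differed between genotypes. Summed over the 3 genes, KO libraries had 36.5 to 46.5 CPM and floxed libraries 80.4 to 148 CPM. Sirpb1a made up 16.7, 15.1, 18.2 and 17.2% of the summed count in floxed and 29.4, 26.4, 33.7 and 30.5% in KO libraries, with no overlap. The exact (Clopper-Pearson) 95% interval of a single library was at its widest in KO replicate 4, 30.8 to 36.7% of 1030 counts, and covers counting error only. Sirpb1b gave 50.6% ± 2.31 (SD, n = 4) with floxed and 44.5% ± 3.36 (SD, n = 4) with KO asrij. Sirpb1c gave 32.6% ± 1.40 and 25.5% ± 3.03. Because the copies share sequence, these shares describe how reads were assigned and come with no test.

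**Figure D2:**
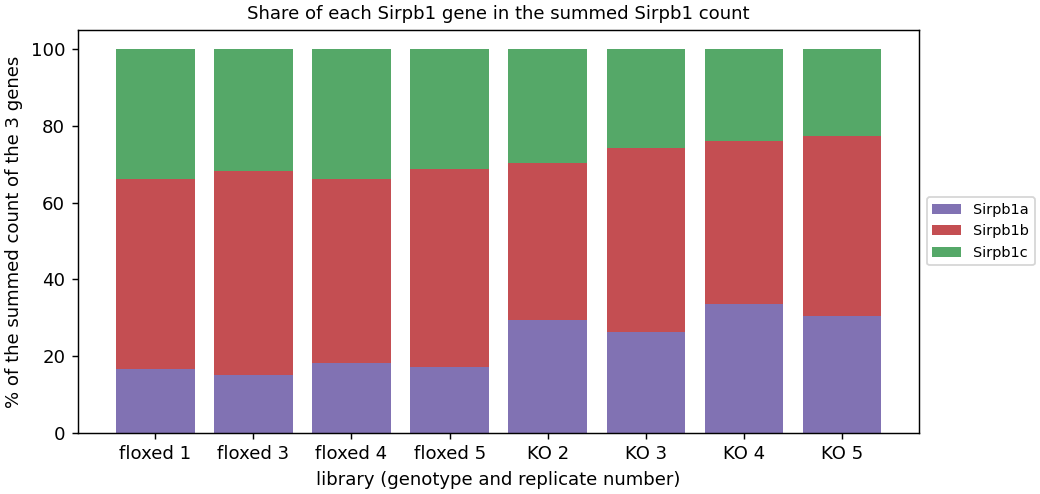
Share of each Sirpb1 gene in the summed count of the 3 genes (y axis, %) for each library (x axis). Sirpb1a takes 15.1 to 18.2% in the floxed and 26.4 to 33.7% in the KO libraries.

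On chromosome 3, the 3 Sirpb1 genes span 477 kb and are flanked on the same strand by Gm9733, 39.4 kb from Sirpb1a, and Gm5150, 98.3 kb from Sirpb1c. Coding parts of these flanking genes are related to those of the Sirpb1 genes, with 75.6 to 76.2% identity for Gm9733 and 78.5 to 79.7% for Gm5150. Their spliced transcripts share no 50-base stretch with a transcript of another gene, and introns were not compared. Gm5150 had 40.6, 23.8, 30.4 and 28.7 CPM in floxed and 17.2, 17.9, 13.6 and 14.0 CPM in KO libraries, with no overlap, and was lower in KO (log2 fold change -0.97, SE 0.20, adjusted p = 0.0354, edgeR). That call was lost in 7 of 8 fits with a library left out, all but the one without floxed replicate 3, and under the replicate block. Gm9733 had a log2 fold change of -0.60 (adjusted p = 0.209, edgeR) and overlapping groups. Beyond them, Ythdf3, a reader of methylated adenosine in RNA, had -0.98 (adjusted p = 0.0596, edgeR), and the carbonic anhydrase genes Car3 and Car2 had -0.61 (adjusted p = 0.451, edgeR) and 1.31 (adjusted p = 0.0854, edgeR). Groups of Ythdf3 and Car2 did not overlap. The next protein-coding gene on the side of Ythdf3, Cypt12, had 0 counts in every library.

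**Figure D3:**
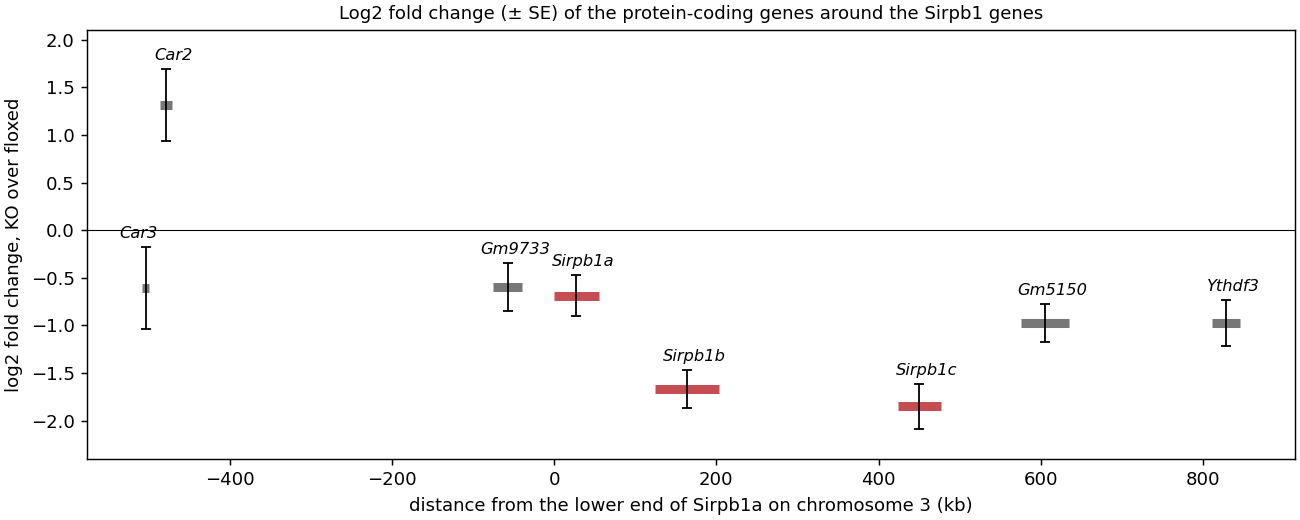
Log2 fold change (KO over floxed, y axis, bars ± SE) of tested protein-coding genes against their distance along chromosome 3 from the lower end of Sirpb1a (x axis, kb); the width of a block is the gene's span, and Sirpb1 genes are red. Sirpb1b and Sirpb1c (-1.67 and -1.85) lie below their neighbours Sirpb1a (-0.69) and Gm5150 (-0.97).

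Inside the span of Sirpb1b, the antisense gene Gm37468 fell from a mean of 2.21 to 0.321 CPM (log2 fold change -2.79, adjusted p = 0.0441, edgeR), but the use of strand in counting is not given, so its reads and those of Sirpb1b cannot be told apart. Neighbours of the other members had no passing difference. Next to Cd47, Ift57 had a log2 fold change of 0.12 (adjusted p = 0.772, edgeR) and Bbx of -0.54 (adjusted p = 0.203, edgeR). Next to Sirpa, F830045P16Rik had 1.74 CPM at most and a log2 fold change of -1.18 (adjusted p = 0.422, edgeR), and Pdyn, which encodes opioid peptides, had 0 counts.

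Deposited counts include introns, so annotated transcripts of different length allowed the span to be divided into a 5′ and a 3′ part. For Sirpb1b, the 5′ part (34.2 kb) had a mean of 42.0 CPM in floxed and 10.8 CPM in KO libraries, and the 3′ part (45.03 kb) 16.3 and 7.55 CPM, log2 ratios of means of -1.96 and -1.11. The 3′ part held 23.5 to 30.9% of the count in floxed and 38.3 to 43.0% in KO libraries. For Sirpb1c the log2 ratios were -1.93 (5′) and -1.57 (3′). All 4 of these parts had KO libraries below floxed libraries. Sirpb1a gave -0.69 and -0.66, each with overlap.

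In Sirpa the parts gave unlike values. Its 5′ part (37.0 kb, mostly introns) had 253, 165, 187 and 241 CPM in floxed and 125, 124, 155 and 159 CPM in KO libraries, without overlap and with a log2 ratio of means of -0.59. The last 1.64 kb had 202, 103, 304 and 296 CPM in floxed and 196, 181, 246 and 232 CPM in KO libraries, a log2 ratio of -0.08 with overlap. The last part held 59.3 to 61.4% of the count in KO and 38.5 to 61.9% in floxed libraries. For Cd47 the log2 ratios were 0.03 in the 5′ part and 0.12 in the last 3.92 kb. That last part held 52.6 to 66.4% of the Cd47 count in libraries numbered 1 to 3 and 68.1 to 77.7% in those numbered 4 and 5, so the distribution of reads along the gene moved with the number. These parts were compared as values, with no test.

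**Figure D4:**
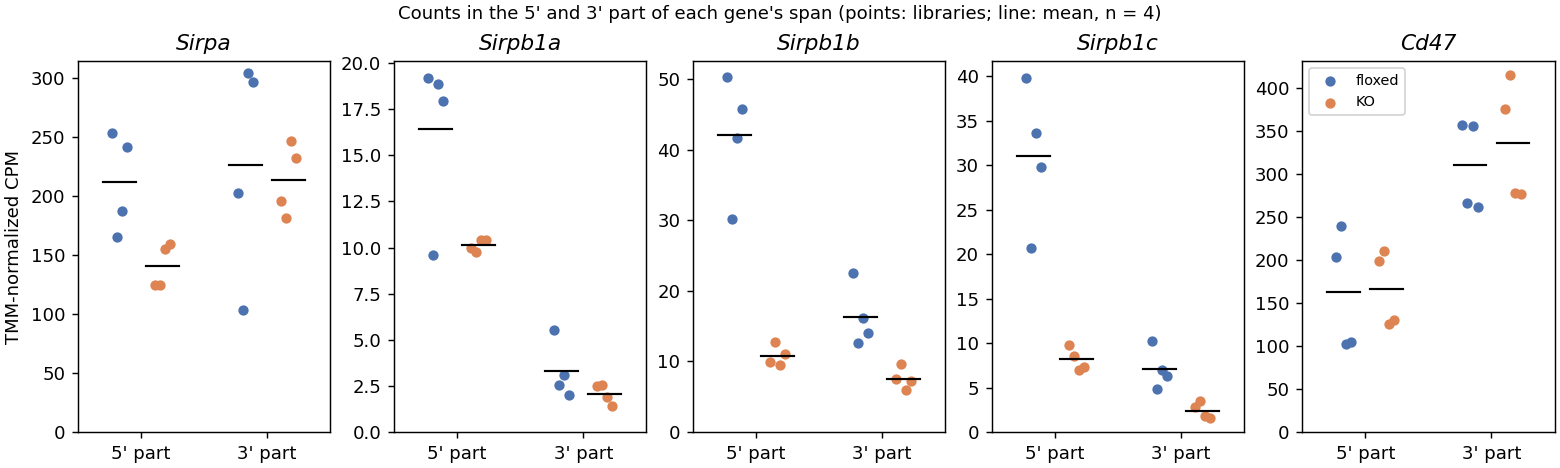
TMM-normalized CPM (y axes, each from 0) in the 5′ part and the 3′ part of the span of each gene, by library, with the group mean as a line (n = 4). In Sirpb1b and Sirpb1c both parts separate the groups, and in Sirpa the 5′ part does.

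Fitted transcript by transcript among 82560 transcripts, all 4 Sirpb1b transcripts (log2 fold change -2.06 to -1.61) and all 8 Sirpb1c transcripts (-2.29 to -1.78) had an adjusted p under 0.05 in edgeR. Of the 4 Sirpb1a transcripts, 1 passed (range -0.98 to -0.63). None of the 14 Sirpa transcripts (-0.85 to -0.10) or of the 10 Cd47 transcripts (0.01 to 0.20) passed in edgeR, and 5 and 0 of these had an unadjusted p under 0.05. Transcripts of a gene share most of their reads, so these are not separate measurements.

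Per kb of spliced transcript, Sirpa and Cd47 had the highest levels of the family. In floxed libraries Sirpa had 117 ± 31.4 CPM per kb, Cd47 90.1 ± 15.7, Sirpb1b 38.9 ± 8.23, Sirpb1c 25.4 ± 6.81 and Sirpb1a 13.9 ± 3.82 (SD, n = 4). In KO libraries Cd47 had 95.9 ± 21.8 and Sirpa 94.3 ± 13.6, followed by Sirpb1b with 12.2 ± 1.91, Sirpb1a with 8.62 ± 0.189 and Sirpb1c with 7.03 ± 1.36. Sirpa and Cd47 overlapped in both genotypes, whereas both were above every Sirpb1 value. In floxed libraries Sirpb1b (28.5 to 48.6) overlapped with Sirpb1c (17.02 to 33.4), and Sirpb1c with Sirpb1a (8.54 to 17.4). In KO libraries Sirpb1a and Sirpb1c overlapped, with their means in the opposite order to floxed libraries, and Sirpb1b was above both. Per kb of genomic span the order of floxed means was the same, with 11.3 for Sirpa, 7.97 for Cd47, 0.736 for Sirpb1b, 0.713 for Sirpb1c and 0.360 for Sirpb1a.

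The pathway around these receptors showed few changes by the test over all genes. Of 12 genes of inhibitory SIRPA signalling, 1 rose, beside 1.22% of all genes, and 0 fell, with a median of -0.23. The gene that rose was Src, a kinase gene, with 1.69 to 3.16 CPM in floxed and 4.005 to 6.45 CPM in KO libraries (log2 fold change 1.29, adjusted p = 0.0445, edgeR). The Src call was lost by limma (adjusted p = 0.053), under the replicate block (adjusted p = 0.175, edgeR) and in 7 of 8 fits with a library left out. At an unadjusted p under 0.05, which 21.8% of all genes had, 2 of the 12 were lower, and DESeq2 had 1 higher and 1 lower and limma none. The phosphatase gene Ptpn6 had -0.37 (adjusted p = 0.358, edgeR), and the kinase genes Lyn and Fgr, which phosphorylate receptor tails, had -0.52 and -0.39 (adjusted p = 0.18 and 0.327, edgeR). Without floxed replicate 3, 6 of these 12 genes were lower and 1 higher, and within numbers 4 and 5 it was 7 and 1.

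Among 11 genes of activating SIRPB1 signalling, 0 rose and 0 fell in edgeR, with a median of -0.28. At an unadjusted p under 0.05, which 21.8% of all genes had, 1 was lower, and DESeq2 and limma had 0. Without floxed replicate 3, 1 was higher and 1 lower, and within numbers 4 and 5, 1 was higher and 6 lower. Tyrobp, the adaptor of SIRPB1, had 108 to 282 CPM in floxed and 159 to 227 CPM in KO libraries, a log2 fold change of -0.28 (adjusted p = 0.626, edgeR). The downstream genes Syk, Plcg2 and Vav1, which encode a kinase, a phospholipase and an exchange factor, had -0.31, -0.42 and -0.28 (adjusted p = 0.351, 0.188 and 0.452, edgeR).

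Of 16 genes of CD47 and SIRPA ligands, CD47 partners and CD47 maturation, 13 were tested. In KO libraries 2 rose, beside 1.22% of all genes, and 0 fell, with a median of -0.13. At an unadjusted p under 0.05, 2 were higher and 2 lower, against 2 and 1 by DESeq2 and 2 and 0 by limma. Without floxed replicate 3, 2 were higher and 1 lower, and within numbers 4 and 5 it was 2 and 3. Thbs1, the gene of thrombospondin, a secreted ligand of CD47, rose from 27.5, 38.6, 26.0 and 25.9 CPM in floxed to 97.5, 100.4, 96.5 and 89.0 CPM in KO libraries (log2 fold change 1.70, SE 0.17, adjusted p = 0.00196, edgeR). Itga2b, an integrin gene that is also in the megakaryocyte marker list, rose from a mean of 15.8 to 38.1 CPM (log2 fold change 1.27, adjusted p = 0.00803, edgeR), a call that ended under the replicate block (adjusted p = 0.0885). The abundant partners Gnai2, a G protein gene, and the integrin genes Itgb2, Itga4 and Itgb1 had -0.28, -0.54, -0.77 and -0.07, with adjusted p of 0.715, 0.262, 0.228 and 0.852 in edgeR. Thbs2 and Sftpd were too low to test, and Sftpa1 had no counts.

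Of 22 genes of other phagocytosis checkpoints and signals, 1 rose, beside 1.22% of all genes, and 0 fell, with a median of -0.27. At an unadjusted p under 0.05, which 21.8% of all genes had, 4 were higher and 2 lower. DESeq2 had 4 higher and 0 lower, and limma had 0. Gas6, which bridges dying cells to phagocyte receptors, rose from a mean of 7.15 to 16.7 CPM (log2 fold change 1.22, adjusted p = 0.0472, edgeR). That call was lost by limma (adjusted p = 0.053), with immunoglobulin genes left out (adjusted p = 0.0527, edgeR), under the replicate block (adjusted p = 0.158, edgeR) and in 7 of 8 fits with a library left out. Cd24a, another surface signal that restrains phagocytes, had 0.55 (adjusted p = 0.179, edgeR), and the integrin gene Itgam had -0.63 (adjusted p = 0.17, edgeR). The engulfment signal Calr had -0.27 and the class I subunit gene B2m -0.37, with adjusted p of 0.547 and 0.438 in edgeR. Without floxed replicate 3, 4 of the 22 were higher and 7 lower, and within numbers 4 and 5 it was 6 and 9. For comparison, the median log2 fold change over all genes tested was -0.01, with 50.4% of genes below 0.

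**Figure D5:**
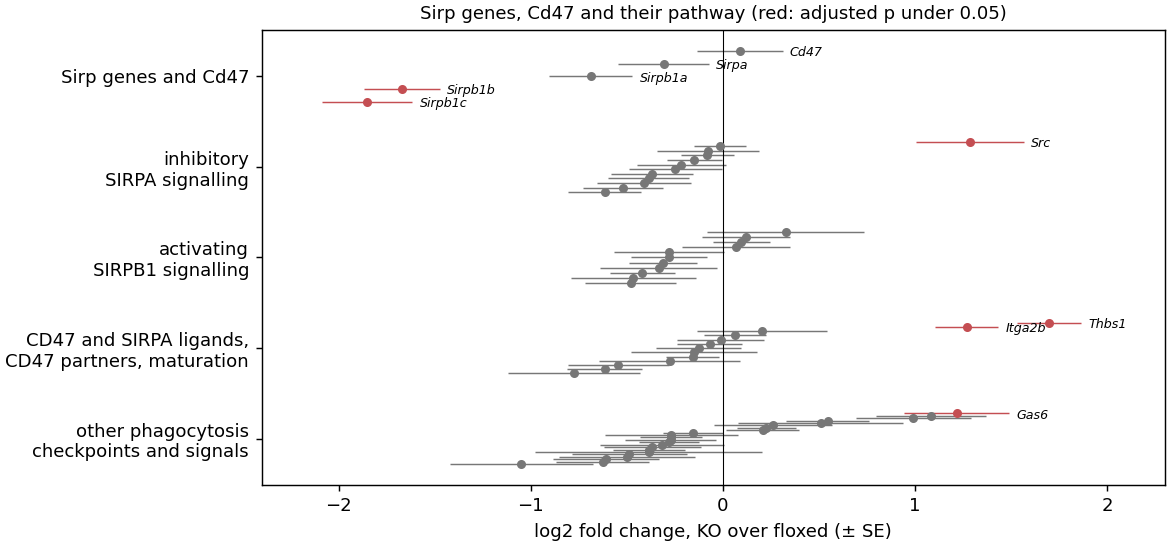
Log2 fold change (KO over floxed, x axis, bars ± SE) of the 5 genes and of each tested gene in 4 pathway lists (rows); red marks an adjusted p under 0.05. Sirpb1b and Sirpb1c are the red points on the left, and Src, Itga2b, Thbs1 and Gas6 those on the right.

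Profiles over the 8 libraries were compared by the root mean square difference of centred and scaled log2(CPM + 1) values, in which 0 means the same shape, over 13693 protein-coding genes. Genes named only by a clone or model number, Gm5150 and Gm9733 among them, were left out of this set. Among the 5 genes, Sirpb1b and Sirpb1c were most alike (0.171), followed by Sirpb1a with Sirpb1c (0.468) and with Sirpb1b (0.514), and Sirpa and Cd47 were least alike (1.80). The Sirpb1 copies share sequence, so their profiles are not separate measurements. Rab6a, a trafficking GTPase gene, was closest to both Sirpb1b (0.0994) and Sirpb1c (0.0944). After Rab6a, Sirpb1b was most like Ces1d (0.114), and Sirpb1c most like Pld1 (0.142) and Tbc1d1 (0.155). Closest to Sirpb1a were Tlr13 (0.0897), Antxr2 (0.115) and Lyve1 (0.116), to Sirpa Ptpn1 (0.0787), Mboat7 (0.0793) and Jdp2 (0.0988), and to Cd47 Esf1 (0.139), Cacybp (0.149) and Rufy2 (0.161). With 8 libraries of 2 genotypes, any gene with a like difference between genotypes comes out alike, so these are descriptions.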

How the data were processed

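RNA-seq of sorted LT-HSCs from 4 asrij floxed and 4 KO mice was analysed, with groups from the sample labels. The authors used FastQC and Trim Galore on the reads and aligned them with Bowtie 2 to GRCm38/mm10 transcripts; the counting tool, versions and use of strand are not given in the sources used here. The authors deposited whole-number counts, not normalized, for 138930 transcripts per library. GENCODE M21 held 138789 of them. Transcripts of Cd47, and of Sirpa, with the same span but different exons had equal counts in every library, so a count covers the genomic span with introns, and reads are counted on several transcripts, so the transcript with the highest total stood for its gene.

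Genes passing filterByExpr by genotype were scaled by TMM, and 21902 genes were tested by the quasi-likelihood F-test of edgeR 4.0.16 under R 4.3.3, with p-values adjusted by Benjamini-Hochberg over all of them. limma 3.58.1 (voom) and DESeq2 1.42.0 were alternatives. The fits were tested on simulated data. p-values measure the spread between 4 mice of each genotype. Other steps used Python 3.11.15.

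Genes were named by rule: the 5 members, Ociad1, members of 4 pathway lists with adjusted p under 0.05 and the 4 most abundant of each, 3 genes most alike in profile for each member, and neighbours. Some genes that the rule names are not reported here. Members and lists were chosen with earlier results of these data known. Numbers 3, 4 and 5 occur in both genotypes, in different mice. Deviations of same-numbered libraries from their group means correlated across genes (0.374, 0.394 and 0.579), so blocked values are given. Libraries of different numbers within 1 to 3, or within 4 and 5, correlated as well (0.346 to 0.603).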

Additional observations from a re-analysis of the deposited data

Results flagged for a closer look

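On the log2(CPM + 1) scale, floxed replicate 3 was far from the other floxed libraries for 2 of 38 gene and group combinations checked, close to the 1.9 that chance gives at this limit. For Car2 it had 10.1, against 8.49 to 8.64 in the other floxed libraries. For Thbs1 it had 5.31, against 4.75 to 4.83. Both values lay on the side of the KO libraries, and the cause was not tested.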

How the results depend on the processing

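Sirpb1b and Sirpb1c kept their direction in all 22 alternatives and both thresholds in 20. The replicate block gave -1.50 and -1.76 and numbers 1 to 3 gave -1.53 and -1.61, with adjusted p above 0.05 in both fits. These fits hold fewer libraries, as does the fit within numbers 4 and 5, in which both genes passed. Why the calls differ among these fits was not tested. Sirpb1a passed the limit on p with a block for numbers 4 and 5 (-0.68), within numbers 4 and 5 (-0.80) and, of the fits with a library left out (-0.85 to -0.54), in the one without floxed replicate 3, and Sirpa within numbers 4 and 5 (-0.38). Cd47 turned sign within numbers 4 and 5 (-0.029) and with a library left out (-0.029 to 0.21). Against 261 genes past both thresholds, the adjusted p alone gave 651, DESeq2 503, the replicate block 44, the block for numbers 4 and 5 521, numbers 1 to 3 2, numbers 4 and 5 1061, and fits with a library left out 51 (without floxed replicate 1) to 857 (without floxed replicate 3). Against 4 pathway genes with adjusted p under 0.05, the limit on fold change gave 1, DESeq2 9, limma 2, the replicate block 1, the block for numbers 4 and 5 8, numbers 1 to 3 0, numbers 4 and 5 35, and fits with a library left out 2 to 23 (without floxed replicate 3). The cause of these shifts was not tested. Counts of 4249 or more per gene over the libraries left differences between mice, not separated here from counting error, inside each SE.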

Other observations

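Among the genes of the phagocytosis list, chosen here after their values were seen, Axl and Mertk, which encode receptors for the Gas6 protein, had groups without overlap, as did 14.8% of all genes, and did not pass the test. Axl had 20.4 to 51.8 CPM in floxed and 58.6 to 65.5 CPM in KO libraries (log2 fold change 1.09, adjusted p = 0.0677, edgeR). Mertk had 3.02 to 7.49 CPM in floxed and 7.97 to 9.86 CPM in KO libraries (log2 fold change 0.99, adjusted p = 0.0956, edgeR). The third receptor gene, Tyro3, was below 0.6 CPM in every library, with overlapping groups.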
